A study of Homo sapiens with 9 samples.

Results

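The genes described here are 10 enzymes that hydroxylate or crosslink collagen: the lysyl hydroxylases PLOD1, PLOD2 and PLOD3, the prolyl 4-hydroxylase subunits P4HA1, P4HA2 and P4HB, and the lysyl oxidases LOX, LOXL1, LOXL2 and LOXL4. They were chosen by gene symbol from the 58051 genes of the count table, around PLOD2, which was picked from these same data because its reads were missing in p53 KO cells. Its levels in p53 KO cells are therefore a description with no test, and the question put to the other 9 genes is whether any of them was higher where PLOD2 was lost. Of the 10 genes, 8 had enough reads to be tested, among 14513 genes tested in all. LOX stayed under the filter on low counts and LOXL4 had no read in any library.

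RNA was sequenced from A431 cells, an epidermoid carcinoma cell line that endogenously expresses mutant p53. The groups were A431 parental (mutp53), A431 Ctrl (mutp53), which carried an empty vector construct, and A431 p53 KO, made with a CRISPR construct against p53, with 3 libraries in each. Per the labels, cells of all groups were grown as single colonies and then in 6-well plates in DMEM with serum, and no treatment was given. Ctrl and p53 KO may therefore each stand for a single clone, so a difference between lines and the loss of p53 cannot be told apart. The labels do not say whether the 3 libraries of a group came from separate cultures, so the p-values measure the spread between these libraries only.

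Collagen chains are modified in the endoplasmic reticulum before they fold. Prolyl 4-hydroxylase, whose catalytic alpha subunit (P4HA1 or P4HA2) pairs with the beta subunit P4HB, hydroxylates prolines and so stabilises the triple helix. Lysyl hydroxylases modify lysines: PLOD1 mainly acts within the helix, PLOD2 on the telopeptides at the chain ends, and PLOD3 also adds sugars to hydroxylysine. Outside the cell, lysyl oxidases turn lysine and hydroxylysine into the aldehydes from which crosslinks form. Which kind of crosslink forms depends on telopeptide hydroxylation, and high PLOD2 is known from fibrosis and from stiff tumour matrix. Several of these genes, PLOD2 and P4HA1 among them, are known targets of the hypoxia-inducible factors, which bind a response element with the core ACGTG.

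The promoters of the 3 lysyl hydroxylases and of P4HA1, the other member that was higher in p53 KO cells than in both controls, are shown for comparison as the 250 bases before the RefSeq start in GRCh38.p14, each 5′ to 3′ on the gene's own strand, with every ACGTG on either strand in capitals. They are PLOD2 at chr3:146161185-146161434 on the minus strand, PLOD1 at chr1:11934467-11934716 on the plus strand, PLOD3 at chr7:101217582-101217831 on the minus strand and P4HA1 at chr10:73096867-73097116 on the minus strand.
PLOD2: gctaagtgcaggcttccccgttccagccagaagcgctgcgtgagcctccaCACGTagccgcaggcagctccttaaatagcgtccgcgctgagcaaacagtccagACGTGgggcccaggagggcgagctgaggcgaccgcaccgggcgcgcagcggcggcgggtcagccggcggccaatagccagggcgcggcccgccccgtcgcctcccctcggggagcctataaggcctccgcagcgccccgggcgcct
PLOD1: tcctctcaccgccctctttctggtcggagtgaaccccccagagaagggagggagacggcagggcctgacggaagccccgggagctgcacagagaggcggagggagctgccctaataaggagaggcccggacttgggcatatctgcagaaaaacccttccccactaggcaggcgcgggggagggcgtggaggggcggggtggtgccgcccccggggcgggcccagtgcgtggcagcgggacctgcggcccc
PLOD3: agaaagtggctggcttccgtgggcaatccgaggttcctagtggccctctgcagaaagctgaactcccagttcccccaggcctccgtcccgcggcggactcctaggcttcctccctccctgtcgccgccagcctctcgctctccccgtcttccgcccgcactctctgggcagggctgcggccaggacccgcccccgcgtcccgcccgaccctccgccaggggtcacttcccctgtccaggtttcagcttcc
P4HA1: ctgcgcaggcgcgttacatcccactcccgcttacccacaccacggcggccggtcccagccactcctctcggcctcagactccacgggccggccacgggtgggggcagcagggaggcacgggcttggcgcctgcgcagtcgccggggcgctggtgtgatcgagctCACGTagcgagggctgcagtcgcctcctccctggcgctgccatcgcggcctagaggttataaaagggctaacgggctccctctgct

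PLOD2 had 2 ACGTG cores, 200 and 146 bases before its start, where 18.5% of 35116 RefSeq promoters of this length held at least 1. P4HA1 had 1 core, 86 bases before its start, and PLOD1 and PLOD3 had none in these windows. The PLOD2 window was also rich in CpG, the dinucleotide at which promoters are methylated. It held 30 CpG against a median of 11, and 87.6% of promoters held fewer, while PLOD1 held 17, PLOD3 19 and P4HA1 25. Neither feature was particular to PLOD2 among the members read, since the windows of P4HB and LOXL4 held 37 CpG each and that of the first LOX start held 4 cores. The window of LOXL2 was not read. These are counts of letters in the reference. Neither methylation nor factor binding was measured.

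Library totals ranged from 19783778 to 29840452 counts. Levels are given as CPM, the counts a gene would have in a normalized library of 1000000 counts, and per kb of merged exon where genes are compared with each other. The Ctrl replicate 1 library stood slightly apart from its group, with a mean correlation of 0.986 with the other Ctrl libraries where the other libraries had 0.989 to 0.994 within their groups. Without it, the number of genes called between p53 KO and parental rose from 2631 to 4944, and every called member kept its direction. Markers of keratinocyte-like epithelium summed to 15650 to 18640 CPM in parental cells, 10190 to 12460 in Ctrl cells and 14580 to 15260 in p53 KO cells. Most of that sum was EGFR, with means of 15900 CPM in parental cells, 10116 in Ctrl cells and 13501 in p53 KO cells. Of the 7 markers that were tested, 3 were higher and 1 lower in p53 KO than in parental cells, beside 9.77% and 8.36% of all genes. Against Ctrl 2 were higher and 1 lower, beside 15% and 14.2% of all genes. In Ctrl against parental cells 1 was higher and 3 were lower, beside 10.6% and 9.69%. KRT14 was not tested, with at most 13 counts in any library. Markers of fibroblast-like cells, the main makers of fibrillar collagen, summed to at most 4.42 CPM in any library, nearly all of it COL1A1, with 5 of the 8 markers at 0 throughout.

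PLOD2 was lost in p53 KO cells. PLOD2 (ENSG00000152952, chr3:146035139-146163725, minus strand, GRCh38) had 288, 288 and 300 counts in the parental libraries, 283, 640 and 544 in Ctrl and 0 in each of the 3 p53 KO libraries. This was 12.0 ± 1.61 CPM in parental and 19.2 ± 4.24 CPM in Ctrl cells (SD, n = 3). Every control library held 283 or more PLOD2 reads and no p53 KO library held any. Taking 3 counts per library as the most that a count of 0 allows, PLOD2 was at least 98.8-fold lower in p53 KO than in parental cells and at least 159-fold lower against Ctrl. These limits cover counting error only. Ctrl cells had more PLOD2 than parental cells (log2 fold change 0.69, SE 0.17, adjusted p = 0.0233), with all Ctrl libraries above all parental libraries. That call was lost without parental replicate 1 (adjusted p = 0.0962), parental replicate 2 (0.0892) or Ctrl replicate 2 (0.0700).

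**Figure D1:**
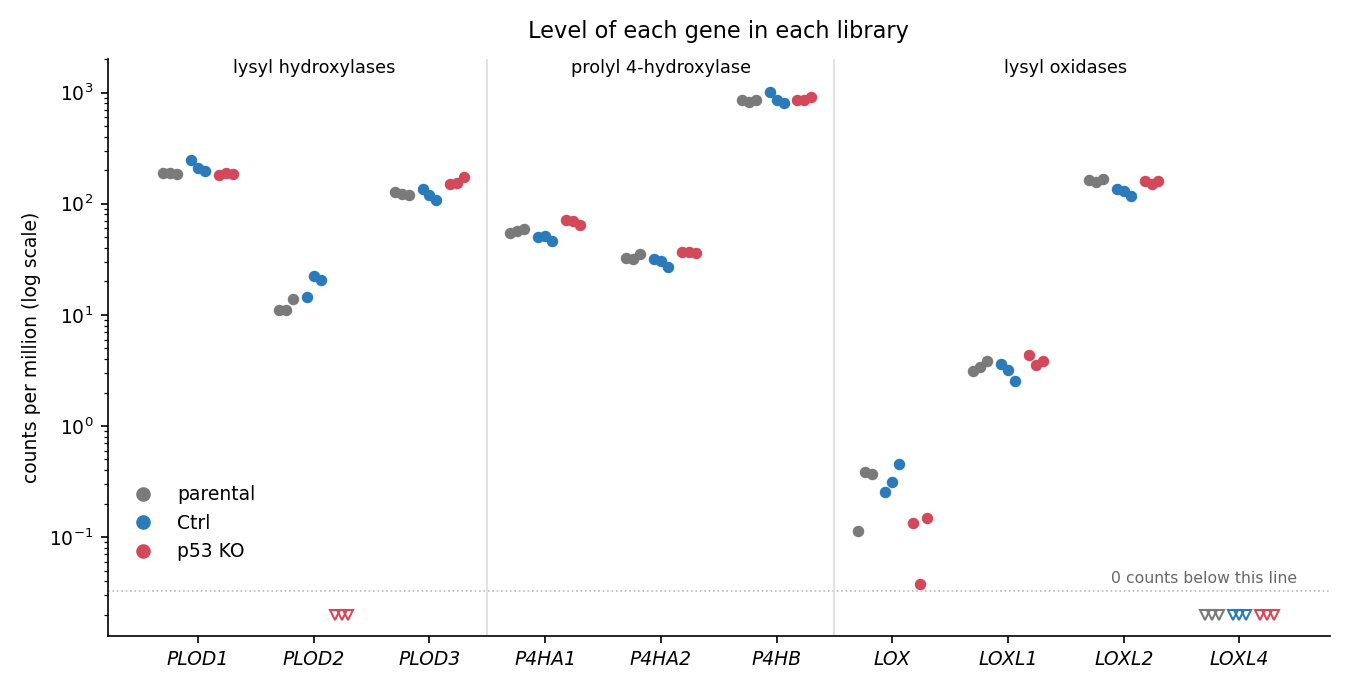
Level of each of the 10 genes in each library, in CPM on a log scale, with open triangles for libraries with 0 counts and colours for the 3 groups. PLOD2 was at 11.0 to 22.5 CPM in the control libraries and had no reads in the 3 p53 KO libraries, and LOXL4 had no reads anywhere.

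PLOD3 was the lysyl hydroxylase that was higher in p53 KO cells. PLOD3 (ENSG00000106397, chr7:101205977-101218420, minus strand) was at 128, 122 and 119.6 CPM in the parental libraries, 135, 119 and 108 in Ctrl and 152, 155 and 176 in p53 KO cells. All p53 KO libraries lay above all 6 control libraries. The increase was 1.30-fold over parental (log2 0.38, SE 0.09, 95% interval 0.18 to 0.58, adjusted p = 0.0152) and 1.33-fold over Ctrl (log2 0.41, SE 0.09, 0.21 to 0.61, adjusted p = 0.00617). The difference between Ctrl and parental cells was -0.03 (adjusted p = 0.826). The call against parental was lost without parental replicate 2 (adjusted p = 0.0591), parental replicate 3 (0.0681) or p53 KO replicate 3 (0.0635), and the call against Ctrl held without any single library. PLOD3 overlaps ZNHIT1 on the opposite strand over 256 bases.

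PLOD1, the most abundant of the 3, was called in neither p53 KO comparison. PLOD1 (ENSG00000083444, chr1:11934205-11975538, plus strand) ranged from 185 to 190 CPM in parental cells, from 196 to 249 in Ctrl cells and from 180 to 189 in p53 KO libraries. The log2 fold change was -0.02 against parental (SE 0.09, 95% interval -0.21 to 0.17, adjusted p = 0.884) and -0.23 against Ctrl (SE 0.09, -0.43 to -0.04, adjusted p = 0.0636). Ctrl replicate 1 held the highest value, and without Ctrl replicate 3 the difference from Ctrl was called at -0.31 (adjusted p = 0.0155). The interval against parental reached an increase of 0.17 on the log2 scale at its upper end, below the 0.38 of PLOD3.

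The 3 lysyl hydroxylases were then set on 1 scale. Per kb of merged exon, PLOD2 was the least abundant of them before its loss, at 0.825 ± 0.111 in parental and 1.32 ± 0.292 in Ctrl cells, where PLOD1 was at 35.4 ± 0.517 and 41.0 ± 5.27 and PLOD3 at 21.7 ± 0.748 and 21.3 ± 2.42. PLOD2 made up 1.43% of the summed lysyl hydroxylase level in parental and 2.13% in Ctrl cells. Its loss thus removed 0.825 units of this level against parental and 1.32 units against Ctrl. PLOD3 was higher by 6.60 units (SE 1.39) against parental and by 7.04 units (SE 1.92) against Ctrl, and its share of the sum was 37.5% in parental cells, 33.5% in Ctrl cells and 44.8% in p53 KO cells. In these units of RNA the PLOD3 difference was larger than the whole PLOD2 level of either control. PLOD1 differed by -0.55 units (SE 0.62) against parental and by -6.17 units (SE 3.09) against Ctrl. PLOD1 and PLOD3 together were thus higher by 6.04 units against parental and by 0.87 units against Ctrl, where the PLOD2 loss was 1.32 units.

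The summed level of the 3 genes was 58.0 ± 1.08 in parental cells, 63.6 ± 7.42 in Ctrl cells and 63.2 ± 2.76 in p53 KO cells. The sum in p53 KO cells was 1.09 times that of parental cells and 0.993 times that of Ctrl cells. The p53 KO libraries, at 60.5 to 66.0, all lay above the parental range of 56.8 to 59.0 and inside the Ctrl range of 57.3 to 71.8. Against Ctrl the ratio turned with the library left out, from 0.941 without Ctrl replicate 3 to 1.06 without Ctrl replicate 1, and Ctrl replicate 1 carried the highest PLOD1. With the longest transcript as the length, PLOD2 was 1.87% of the parental and 2.74% of the Ctrl sum and PLOD3 was higher by 13.3 and 14.1 units where PLOD2 lost 2.04 and 3.28. No test was made on these sums, and they count RNA, not telopeptide hydroxylation, which was not measured.

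**Figure D2:**
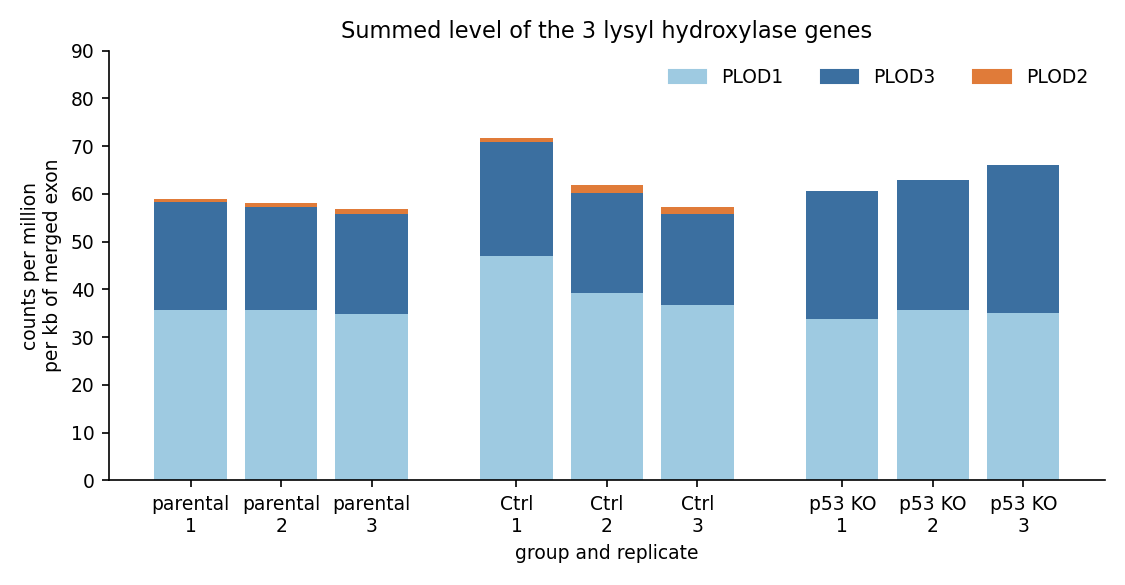
Summed level of PLOD1, PLOD3 and PLOD2 in each library, in CPM per kb of merged exon, with 1 bar per library. PLOD2 is a thin layer in the 6 control bars and absent from the 3 p53 KO bars, whose PLOD3 layer is the deepest.

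Of the prolyl 4-hydroxylase subunits, P4HA1 was higher in p53 KO cells than in both controls, P4HA2 was higher than in Ctrl alone, and their partner P4HB was called in neither comparison. P4HA1 (ENSG00000122884, chr10:73007217-73096974, minus strand) was at 55.0, 57.0 and 58.9 CPM in the parental libraries, 50.2, 51.1 and 46.4 in Ctrl and 71.6, 69.2 and 64.8 in p53 KO cells. The 3 groups did not overlap, with Ctrl lowest and p53 KO highest. P4HA1 rose 1.39-fold against Ctrl (log2 0.48, SE 0.07, adjusted p = 0.000623) and 1.20-fold against parental (log2 0.27, SE 0.07, adjusted p = 0.0285). The call against Ctrl held in every alternative fit with the same threshold. That against parental was lost without any filter on low counts (adjusted p = 0.0817) and without parental replicate 1, 2 or 3 or p53 KO replicate 1 or 2, where the adjusted p reached 0.122 at most.

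P4HA2 (ENSG00000072682, chr5:132190147-132295315, minus strand), the other catalytic subunit, was at 32.7, 31.7 and 35.4 CPM in parental, 31.9, 30.8 and 27.2 in Ctrl and 36.5, 36.7 and 36.4 in p53 KO libraries. The p53 KO libraries lay above all controls, but the highest parental library was within 1 CPM of them. The increase was called against Ctrl (log2 0.29, SE 0.08, adjusted p = 0.0240) and not against parental (log2 0.14, SE 0.08, 95% interval -0.05 to 0.32, adjusted p = 0.292). The call against Ctrl was lost without Ctrl replicate 2 (adjusted p = 0.0503), Ctrl replicate 3 (0.0790), p53 KO replicate 1 (0.0705) or p53 KO replicate 2 (0.0755), and in a fit of only the 2 groups (0.0665). P4HA2 overlaps PDLIM4 on the opposite strand over 15759 bases, and the strand setting of the counting is not given in the sources used here.

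P4HB (ENSG00000185624, chr17:81843159-81860856, minus strand), also known as protein disulfide isomerase, was the most abundant member at 76.5 ± 1.79 CPM per kb in parental cells, 80.0 ± 9.64 in Ctrl cells and 78.9 ± 2.82 in p53 KO cells. The log2 fold change was 0.05 against parental (95% interval -0.14 to 0.23, adjusted p = 0.749) and -0.02 against Ctrl (-0.20 to 0.16, adjusted p = 0.889). P4HB lay well above P4HA1 at 18.4 ± 0.638 and P4HA2 at 3.28 ± 0.192 in parental cells. The catalytic subunits together were at 21.7 ± 0.782 in parental cells, 18.9 ± 1.03 in Ctrl cells and 25.8 ± 1.12 in p53 KO cells.

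Among the lysyl oxidases only LOXL2 and LOXL1 had enough reads to test, and neither differed from parental in p53 KO cells at the threshold. LOXL2 (ENSG00000134013, chr8:23296897-23425328, minus strand), which was 96.4% of the summed lysyl oxidase level in parental cells, was at 163, 158 and 167 CPM in parental, 135, 130.1 and 117 in Ctrl and 159, 149.9 and 159 in p53 KO libraries. The Ctrl libraries lay below all others, and the parental and p53 KO ranges overlapped. LOXL2 was lower in Ctrl than in parental cells (log2 -0.35, SE 0.07, adjusted p = 0.00715), and p53 KO cells were above Ctrl (log2 0.29, SE 0.07, adjusted p = 0.0105) and not different from parental at the threshold (log2 -0.06, SE 0.07, 95% interval -0.22 to 0.10, adjusted p = 0.607). LOXL2 overlaps ENTPD4 on the same strand over 39546 bases, so strand does not separate the 2 genes where their exons meet.

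LOXL1 (ENSG00000129038, chr15:73925989-73952137, plus strand), an oxidase known for its role in elastic fibres, had 81, 88 and 84 counts in parental cells, 71, 91 and 66 in Ctrl cells and 131, 94 and 78 in p53 KO libraries. The log2 fold change was 0.20 against parental (SE 0.16, 95% interval -0.15 to 0.55, adjusted p = 0.417) and 0.36 against Ctrl (SE 0.16, 0.00 to 0.71, adjusted p = 0.122). Without Ctrl replicate 1 the latter was 0.47 and was called (adjusted p = 0.0474). LOXL1 overlaps LOXL1-AS1 on the opposite strand.

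LOX (ENSG00000113083, chr5:122063195-122078413, minus strand), the founding member of the family, had 3, 10 and 8 counts in parental cells, 5, 9 and 12 in Ctrl cells and 4, 1 and 3 in p53 KO libraries. It was thus near the limit of detection in all groups. The parental and p53 KO ranges overlapped, and all p53 KO libraries lay below all Ctrl libraries. Without the filter on low counts its log2 fold change was -1.40 against parental (SE 0.64) and -1.68 against Ctrl (SE 0.62). Without Ctrl replicate 1, parental replicate 3 or p53 KO replicate 3 LOX passed the filter, but only through control libraries. Its log2 fold change against Ctrl was then -1.83, -1.69 and -1.91. At so few counts no p is given for these fits. LOX is 1 of the members counted below as called against Ctrl without Ctrl replicate 1. LOX overlaps SRFBP1, which had up to 717 counts in a library, on the opposite strand over 12376 bases. LOXL4 (ENSG00000138131, chr10:98247690-98268194, minus strand) was not detectable at this depth, and 3 counts would be 0.101 to 0.153 CPM. The lysyl oxidases summed to 28.2 ± 0.795 CPM per kb in parental cells, 22.2 ± 1.68 in Ctrl cells and 27.2 ± 0.981 in p53 KO cells.

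**Figure D3:**
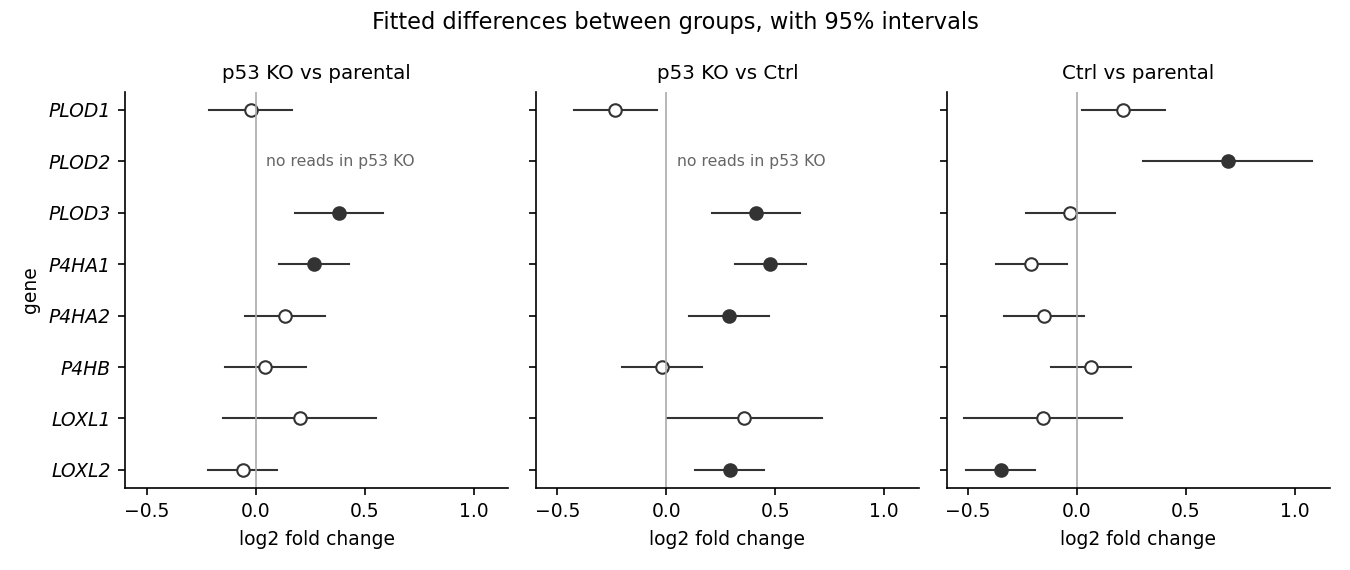
Fitted log2 fold changes of the 8 tested genes in the 3 comparisons, with 95% intervals and filled points where the adjusted p was at most 0.05. PLOD3 and P4HA1 are filled in both p53 KO comparisons, P4HA2 and LOXL2 against Ctrl alone, and PLOD2 is shown for Ctrl against parental alone.

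Counted over the members other than PLOD2, 2 of the 7 tested were higher in p53 KO than in parental cells and 0 were lower, by edgeR's quasi-likelihood test. At an unadjusted p under 0.05 these counts were also 2 and 0, and DESeq2 called 2 and 0. Over all genes 9.77% were called higher and 8.36% lower in that comparison. Leaving out parental replicate 2 or parental replicate 3 left 0 of these 2 calls. Against Ctrl, 4 of the 7 were higher and 0 lower by edgeR's quasi-likelihood test, where 15% of all genes were higher and 14.2% lower. At an unadjusted p under 0.05 these counts were 5 and 1, and DESeq2 called 4 and 0. The median log2 fold change of the 7 was 0.14 against parental and 0.29 against Ctrl, beside a median over all genes of 0.01 in either comparison. The comparisons share the p53 KO libraries, so the second is no independent support of the first.

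PLOD3 and P4HA1 were the 2 of 7 called higher against both controls, a call made for 6.46% of all genes, while 5.25% were called lower than both. All 3 p53 KO libraries lay above all 6 control libraries for PLOD3, P4HA1 and P4HA2, which held for 11.9% of all genes, and 10.1% of all genes lay below all controls as PLOD2 did. In Ctrl against parental cells, 1 of the 8 tested members was higher (PLOD2) and 1 lower (LOXL2), where 10.6% of all genes were higher and 9.69% lower. Of the 7 other members tested, none reached a log2 fold change of 1.5, the study's limit for figures, in any comparison.

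In parental cells the order of levels per kb was P4HB, PLOD1, LOXL2 at 27.2 ± 0.723, PLOD3, P4HA1, P4HA2, LOXL1 at 0.949 ± 0.108, PLOD2, LOX at 0.0517 ± 0.0271 and LOXL4 at 0. PLOD2 and LOXL1 were neighbours whose parental ranges overlapped, and their order turned with the longest transcript as the length, where PLOD2 was at 2.04 and LOXL1 at 1.24. On that scale LOXL2 (43.69 ± 1.163) and PLOD3 (43.72 ± 1.504) lay within their spread of each other. On both scales PLOD2 was below P4HA2 and above LOX and LOXL4.

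The tested genes around each member were then read as a description of its region. Only genes above a limit on mean level were used, which 10536 of the tested genes passed. Within 5 Mb of P4HA1, 58 such genes had a median log2 fold change of 0.45 against parental and 0.46 against Ctrl. Of these, 31 were called higher against both controls, beside 6.46% of all genes tested. P4HA1 itself, at 0.27 and 0.48, was thus not above the genes around it against parental and close to their median against Ctrl. Within 5 Mb of PLOD3, 77 such genes had medians of 0.25 and 0.26. Of these, 17 were called higher and 12 lower against both controls, beside 6.46% and 5.25% of all genes tested. PLOD3 was above these medians at 0.38 and 0.41. Around P4HA2 the medians were 0.04 and 0.05 over 42 genes. DNA copy number was not measured, and its part in these differences was not tested.

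LOXL2 stood below the genes around it. The 39 genes above the same limit within 5 Mb had medians of 0.49 against parental and 0.54 against Ctrl. Of these, 26 were called higher than both controls, beside 6.46% of all genes tested, while LOXL2 stood at -0.06 and 0.29. LOXL4 had 81 such genes within 5 Mb, with medians of 0.49 and 0.52 and 52 called higher than both controls, beside the same 6.46%. LOXL4 itself had no read in any group. Around PLOD1 the medians were -0.01 and 0.00 over 60 genes.

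**Figure D4:**
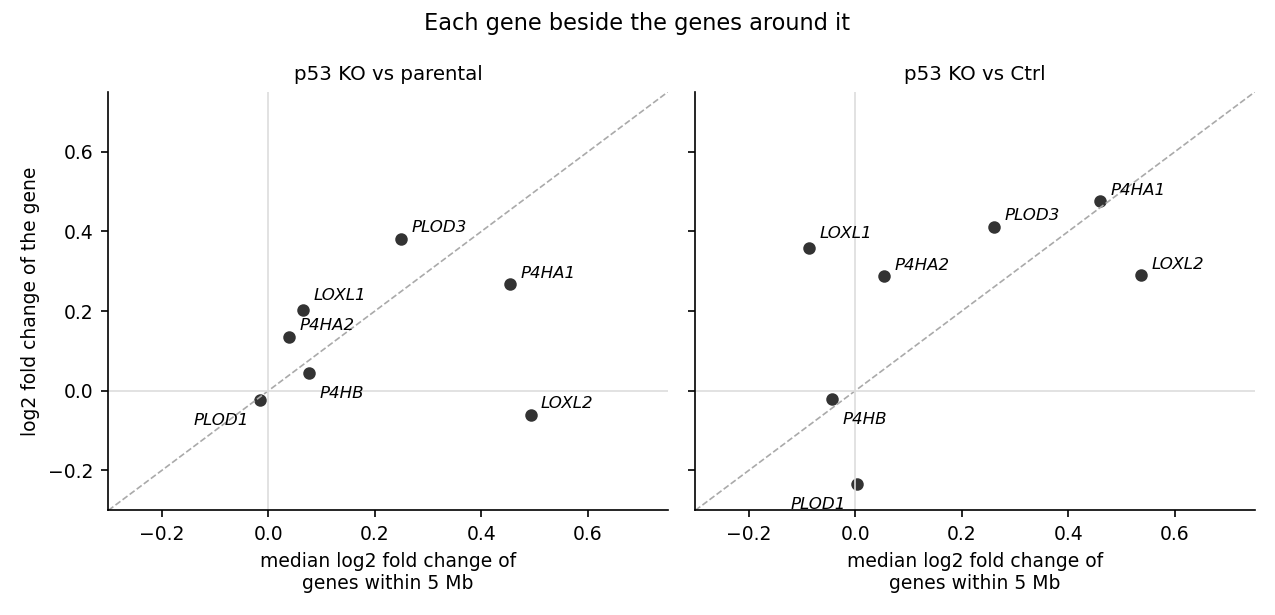
Log2 fold change of each tested gene other than PLOD2 against the median of its region, with a dashed line where both are equal. The region holds the genes within 5 Mb that passed the limit on mean level. P4HA1 lies below the line against parental and near it against Ctrl, PLOD3 lies above it in both, and LOXL2 lies far below it.

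PLOD2 lay among genes that were lower in p53 KO cells. The 25 genes within 5 Mb above the limit on mean level had median log2 fold changes of -0.29 against parental and -0.37 against Ctrl. Of these, 9 were called lower than both controls, beside 5.25% of all genes tested. HLTF and PCOLCE2, also within 5 Mb, were under that limit and were called lower than both controls as well. The nearest tested neighbour, PLSCR1, a phospholipid scramblase 351.5 kb from PLOD2, fell by 0.29 on the log2 scale against parental (SE 0.06, adjusted p = 0.00884) and by 0.67 against Ctrl (SE 0.06, adjusted p = 2.62e-05). GYG1, which primes glycogen synthesis, fell by 0.45 (SE 0.08, adjusted p = 0.00213) and by 0.81 (SE 0.08, adjusted p = 2.47e-05). Ctrl cells were themselves above parental cells for PLSCR1 (log2 0.38, adjusted p = 0.00241) and GYG1 (log2 0.36, adjusted p = 0.00859). In the p53 KO libraries PLSCR1 kept 1273 to 1932 counts and GYG1 1201 to 1826. HLTF, a helicase-like transcription factor 2866 kb away, had 83 to 98 counts in parental cells, 11 to 19 in Ctrl cells and 0 to 1 in p53 KO libraries.

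On the other side of PLOD2, U2SURP, SLC9A9, ST13P15 and C3orf58 were not called in either p53 KO comparison, and the transcript RP11-91G21.1 was called against Ctrl alone (log2 -0.98, adjusted p = 0.0107). UBQLN4P1 and HPS3, on the side of PLSCR1, were not called. Each of these genes kept its reads in the p53 KO libraries.

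**Figure D5:**
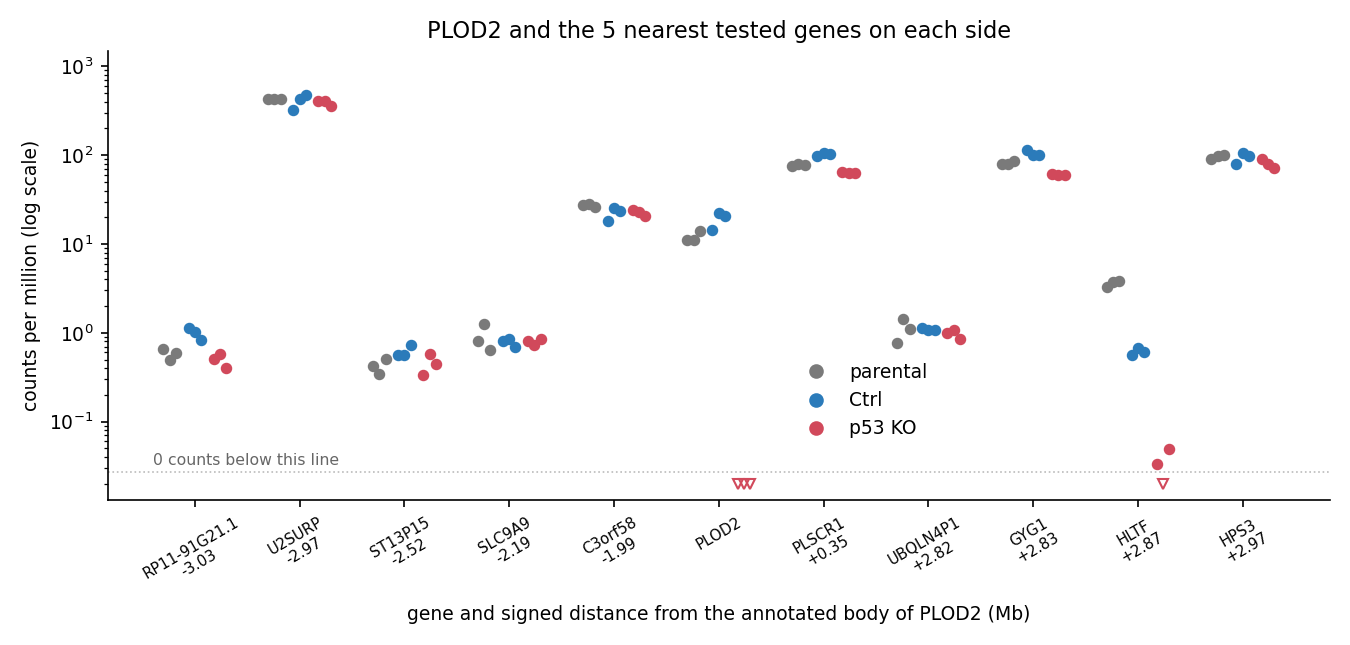
Levels of PLOD2 and of the 5 nearest tested genes on each side in each library, in CPM on a log scale, with the signed distance from PLOD2 in Mb under each name and open triangles for 0 counts. PLOD2 has no reads in the 3 p53 KO libraries, HLTF has 0 to 1, and PLSCR1 and GYG1 sit below the controls but keep their reads.

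The genes whose pattern over the 9 libraries was most like that of PLOD2 were ALDH2, NUDT16P1, RARRES1, ZNF813 and ARHGEF26, with root mean square differences of 0.803 to 1.57 on the log2 scale. ALDH2, a mitochondrial aldehyde dehydrogenase on chromosome 12, had 88 to 110 counts in parental, 137 to 172 in Ctrl and 0 in the p53 KO libraries. NUDT16P1, RARRES1 and ARHGEF26 lie on chromosome 3 as PLOD2 does, and also had 0 counts in every p53 KO library. In all, 7 genes, PLOD2 included, had at most 3 counts in every p53 KO library and at least 20 in every control library.

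The other genes of collagen biosynthesis were read from a list of 40, of which 31 were tested. Against parental 4 were higher, 3 lower and 24 not called, with a median log2 fold change of 0.01, and against Ctrl 5 were higher, 3 lower and 23 not called, with a median of 0.04. These counts were near the shares over all genes, which were 9.77% higher and 8.36% lower against parental and 15% and 14.2% against Ctrl. Among the remaining hydroxylases and oxidases, P3H1, a prolyl 3-hydroxylase, was higher against parental (log2 0.45, SE 0.14, adjusted p = 0.0478) and against Ctrl (log2 0.86, SE 0.14, adjusted p = 0.000985). P3H2 was higher against Ctrl alone (log2 0.31, adjusted p = 0.0178) and LOXL3 was lower in Ctrl than in parental cells (log2 -0.61, adjusted p = 0.0443). The call of P3H1 against parental was lost without Ctrl replicate 2 or any 1 parental or p53 KO library (adjusted p up to 0.168), that of P3H2 without p53 KO replicate 2 or Ctrl replicate 2 (up to 0.0864), and that of LOXL3 without Ctrl replicate 1 or 2, p53 KO replicate 1 or 3 or any parental library (up to 0.135). P4HA3 had at most 2 counts and P3H3 had none.

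Among 10 chaperones and partners, 9 were tested. The folding chaperone HSP90B1 was lower than in parental cells in p53 KO (log2 -0.24, adjusted p = 0.0137) and in Ctrl (log2 -0.37, adjusted p = 0.00132). TMEM38B, an ion channel of the endoplasmic reticulum, and FKBP14, a prolyl isomerase, were higher against Ctrl, by 0.50 (adjusted p = 0.00139) and 0.38 (adjusted p = 0.0185). Without p53 KO replicate 1 or 2 the call of FKBP14 was lost (adjusted p up to 0.0732), and that of HSP90B1 between p53 KO and parental was lost without parental replicate 1 or p53 KO replicate 1 or 3 (up to 0.0610). FKBP10, the isomerase known to work with PLOD2, was too low to test with at most 6 counts in any library. The collagen chaperone SERPINH1 was at 0.02 against parental (adjusted p = 0.918) and -0.07 against Ctrl (adjusted p = 0.595).

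Of the genes that trim and ship procollagen, ADAMTS2, an N-propeptidase, had 0 to 4 counts in the control libraries and 14 to 17 in the p53 KO libraries. It passed the filter on low counts only through the p53 KO group, so no p is given, and it is 1 of the genes counted above as higher. BMP1, the C-propeptidase that also activates LOX, was higher than parental in p53 KO (log2 0.61, SE 0.07, adjusted p = 0.000337) and in Ctrl (log2 0.40, adjusted p = 0.00436). PCOLCE2, an enhancer of that cleavage on chromosome 3, was lower against parental (log2 -1.59, SE 0.15, adjusted p = 6.01e-05) and against Ctrl (log2 -0.91, SE 0.16, adjusted p = 0.0013). PCOLCE2 was also lower in Ctrl than in parental cells (log2 -0.69, adjusted p = 0.00662). SEC24D, a coat protein of procollagen carriers, was lower against both (log2 -0.43, adjusted p = 0.0209, and -0.37, adjusted p = 0.0249), and KLHL12, which enlarges those carriers, against Ctrl alone (log2 -0.27, adjusted p = 0.0176). The call of SEC24D against parental was lost without any 1 parental library or p53 KO replicate 2 or 3 (adjusted p up to 0.0839). Its call against Ctrl was lost without p53 KO replicate 2 or 3 or Ctrl replicate 2 or 3 (up to 0.0948). That of KLHL12 was lost without p53 KO replicate 2 or 3 or Ctrl replicate 2 (up to 0.0675). Of the genes that supply cofactors, 1 of 6 tested was called against parental, near the 18.1% called over all genes. This was the transporter SLC2A1 (log2 0.37, adjusted p = 0.0106), and its call was lost without parental replicate 1 (0.0514).

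Substrates and the hypoxia response were read beside the enzymes. Of 19 collagen chains and matrix proteins, 11 were tested. COL17A1, a transmembrane collagen of hemidesmosomes, rose against parental and Ctrl (log2 1.48 and 1.57, adjusted p = 1.98e-06 and 4.55e-07), while fibronectin (FN1) fell (log2 -0.68 and -0.64, adjusted p = 0.00501 and 0.00437). COL6A1 had 134 to 165 counts in parental cells, 15 to 22 in Ctrl cells and 35 to 84 in p53 KO libraries, and its partner chain COL6A2 had 38 to 72, 0 and 63 to 120. Between p53 KO and parental, 1 of the 11 was higher and 3 were lower, beside 9.77% and 8.36% of all genes. Between p53 KO and Ctrl 7 were higher and 1 lower, beside 15% and 14.2% of all genes. In Ctrl against parental cells 0 were higher and 7 lower (median log2 -0.67), beside 10.6% and 9.69% of all genes.

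Of 16 hypoxia-responsive genes, all tested, edgeR called 4 higher and 0 lower against parental (median log2 0.06) and 7 higher and 2 lower against Ctrl (median 0.22). Over all genes the shares were 9.77% and 8.36% against parental and 15% and 14.2% against Ctrl. Against parental, 5 were higher and 3 lower at an unadjusted p under 0.05, and DESeq2 called 4 and 2. In Ctrl against parental cells edgeR called 0 higher and 7 lower (median -0.22), beside 10.6% and 9.69% of all genes. In that comparison 2 were higher at an unadjusted p under 0.05 and DESeq2 called 1 higher. EGLN3, an oxygen-sensing hydroxylase, was higher in p53 KO by 0.61 against parental (adjusted p = 0.00807) and 1.35 against Ctrl (adjusted p = 3.71e-05), and lower in Ctrl than in parental cells (log2 -0.74, adjusted p = 0.00412). PFKFB4, a regulator of glycolysis, was likewise higher in p53 KO by 0.56 (adjusted p = 0.00378) and 0.96 (adjusted p = 6.78e-05). In Ctrl against parental cells PLOD2 was at 0.69, P4HA1 at -0.21 (adjusted p = 0.0663) and LOXL2 at -0.35. The 16 hypoxia-responsive genes did not share 1 direction there. Beside the 7 called lower, others were higher without being called, such as CA9 at 0.45 (adjusted p = 0.0512) and ADM at 0.24 (adjusted p = 0.156). Oxygen was not varied, and its part in these levels was not tested.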

How the data were processed

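RNA-Seq covered 3 libraries from each of the parental, Ctrl and p53 KO lines of A431. Poly(A) libraries were strand-specific and sequenced paired-end. The authors aligned reads to GRCh38 with STAR 2.5.1b, assigned them to Ensembl genes with featureCounts, and deposited raw counts without normalization for 58051 genes.

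Differences were tested with edgeR 4.0.16 in R 4.3.3 (filterByExpr by group with a minimum count of 10, TMM, 1 mean per group over all 9 libraries, quasi-likelihood test). P-values were adjusted by Benjamini-Hochberg over the 14513 genes tested, and a gene was called at an adjusted p of at most 0.05. Standard errors follow from the F statistic. Positions and exon lengths come from GENCODE release 44. Library totals (19783778 to 29840452 counts) and intervals cover counting error and the spread between libraries only. The members, the gene lists, the rule for named genes and the 5 Mb windows were chosen with earlier results of these data known. That rule took all members, up to 4 called genes with the largest change per list and comparison, of which some substrates, hypoxia genes and keratinocyte markers are given by count only, the 5 genes most like PLOD2 and the 5 tested genes nearest to it on each side.

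Alternatives were DESeq2 1.42.0, DESeq2's size factors, other filters on low counts, a replicate block, fits of only the 2 groups compared, a log2 fold change above 1.5, each library left out in turn and, for sums, other lengths. The check of the targeted gene is not reported here. The scripts were tested on simulated data.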

Additional observations from a re-analysis of the deposited data

Results flagged for a closer look

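P4HA1 was flagged because its p53 KO and Ctrl libraries all lay on opposite sides of the parental mean. It was at a log2 fold change of 0.27 in p53 KO and -0.21 in Ctrl cells, both against parental, and the difference between the 2 lines was 0.48 (edgeR's quasi-likelihood test, adjusted p = 0.000623).

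P4HA2 was flagged in the same way, at 0.14 in p53 KO and -0.15 in Ctrl cells against parental, with a difference of 0.29 (adjusted p = 0.0240). In both genes the shared parental libraries enter both values, and the regional medians in p53 KO against Ctrl were 0.46 around P4HA1 and 0.05 around P4HA2.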

How the results depend on the processing

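Of 329 values of single members under alternatives, 305 kept their direction and side of the threshold, 19 fell below it, 5 passed it and 0 were reversed. For the other named genes these counts were 1268, 94 and 26. Members called between p53 KO and parental, 2 in the report, came to 1 with no filter beyond 1 count, 1 with the replicate block, 0 at a log2 fold change above 1.5 and 0 to 2 without each library in turn. Between p53 KO and Ctrl, 4 came to 0 at that fold and to 3 to 6 without 1 library. Between Ctrl and parental, 2 came to 1 with at least 10 counts in every library, 0 at that fold and 1 to 3 without 1 library, where Ctrl replicate 1 gave 3.

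The other collagen genes called between p53 KO and parental, 7 in the report, came to 4 with the replicate block, 11 with only the 2 groups compared, 2 at that fold and 3 to 12 without 1 library. Between p53 KO and Ctrl, 8 came to 5, 4 and 1 under these settings and 5 to 12 without 1 library. Between Ctrl and parental, 5 came to 3 with the block, 3 with only the 2 groups, 0 at that fold, 8 with DESeq2, 9 with no filter and 3 to 9 without 1 library. Over all genes, 2631 between p53 KO and parental came to 4831 with only the 2 groups, 283 at that fold and 1568 to 4944 without 1 library. Between p53 KO and Ctrl, 4240 came to 477 at that fold and 3100 to 5162 without 1 library. Between Ctrl and parental, 2943 came to 1691 with the block, 1869 with only the 2 groups, 281 at that fold and 1379 to 4375 without 1 library. The summed lysyl hydroxylase level of p53 KO ranged from 1.06 to 1.11 times parental and from 0.941 to 1.06 times Ctrl without 1 library. The cause of these moves was not tested.

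With the replicate block, P4HA1 against parental (adjusted p = 0.0844) and P4HA2 against Ctrl (0.0682) were no longer called. The labels' numbers did not pair the libraries, since deviations from group means correlated at -0.721 to 0.221 over 9 pairs, 1 of them above 0.1, and 0 of 9 libraries correlated best with their own number. Depth limits LOX and LOXL4, whose 3-count limit was 0.101 to 0.153 CPM.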
